A study of Mus musculus with 17 samples.

Results

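This report describes 10 genes of insulin and insulin-like growth factor (IGF) signalling in cultured mouse ovarian follicles, out of 25198 gene rows in the count table. They were chosen by symbol and by role: the ligand gene Igf1, the receptor genes Igf1r, Insr and Igf2r, the adaptor genes Irs1 and Irs2, the binding-protein genes Igfbp2, Igfbp4 and Igfbp5, and the protease gene Pappa. The choice was made with earlier results of these data known. All 10 had a row and passed the low-count filter. The follicles were antral follicles of CD1 mice aged 16 days that had grown for 8 days in eIVFG, encapsulated in vitro follicle growth. The 6 Tyrphostin libraries came from follicles given hCG (human chorionic gonadotropin, which acts as luteinizing hormone and triggers ovulation) together with 10 µM of Tyrphostin AG1478, which blocks the EGF receptor kinase, in DMSO for 4 h. The 11 libraries labelled Control carry the same treatment text, so whether they received hCG or the DMSO vehicle is not stated. Follicles were taken in triplicate for each sample. Batch 1 held 6 Control and 3 Tyrphostin libraries and batch 2 held 5 Control and 3 Tyrphostin libraries. The first number in the library names, here called the set, was 1 or 2 for the batch 1 Control libraries. It was 4, 5 or 6 for those of batch 2. Fits within a batch and between the Control batches count each library as separate. The labels do not say whether libraries came from separate animals or cultures, and the p-values measure only the spread between libraries, which may be partly technical.

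IGF1 is made by granulosa cells of the mouse follicle and strengthens their response to follicle-stimulating hormone. IGF1 and insulin bind receptor tyrosine kinases, which phosphorylate the adaptor proteins IRS1 and IRS2, and these recruit PI3-kinase and through it AKT. IGF-binding proteins hold IGFs away from their receptor, and the protease PAPP-A frees IGF by cutting some of them. In the ovulating follicle, luteinizing hormone acts on the outer granulosa cells, and EGF-like ligands and the EGF receptor carry its signal to the cumulus cells and the oocyte.

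Total counts ran from 1820545 to 8291024 per library, and a floor of 3 counts corresponded to 0.336 to 1.64 CPM (counts relative to the TMM-scaled library total, the unit of all levels given here). In batch 1 the totals were 1820545 to 4834875 in Control and 4680244 to 7451417 in Tyrphostin libraries. In batch 2 they were 2483183 to 8291024 in Control and 3077632 to 6600237 in Tyrphostin libraries. The part of depth in the results was not tested. The granulosa genes Inha and Inhba held at least 80952 and 45661 counts in every library, whereas Amh, which marks granulosa cells of smaller follicles, held 0 to 4 counts and Foxl2 held 0 to 30. Of 4 endothelial markers, Cdh5 held 20 to 282 counts and Pecam1, Emcn and Tek at most 24, and the list summed to 5.55 to 83.6 CPM. Of 4 immune markers, Csf1r held 32 to 167 counts and Cd68, Adgre1 and Ptprc at most 43, and the list summed to 11.5 to 35.8 CPM. Summed theca and stroma markers ran from 264 to 757 CPM in batch 1 Control libraries, 433 to 2140 in batch 2 Control libraries, 273 to 417 in batch 1 Tyrphostin libraries and 809 to 3060 in batch 2 Tyrphostin libraries. The highest of these values was in Tyrphostin 5. Summed oocyte markers ran from 19.1 to 49.3, 25.6 to 88.7, 20.8 to 37.6 and 38.5 to 225 CPM in the same order. Mitochondrially encoded genes took 1.86% to 2.83% of counts in Control and 1.55% to 2.5% in Tyrphostin libraries of batch 1. In batch 2 they took 0.175% in Control 7, 1.74% to 1.94% in Control 8 to 11, and 0.781% to 1.32% in the Tyrphostin libraries; the part of this share in the batch 2 results was not tested. In bulk follicle RNA, fewer cells of a type and less RNA per cell cannot be told apart.

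The main comparison asked which of these genes differed between Tyrphostin and Control libraries, with batch as a term. Irs1 and Insr rose in the Tyrphostin libraries, Irs1 by 1.97-fold and Insr by 1.52-fold, and none of the 10 genes fell. The 2 calls among 10 genes stand beside a background of 10.6% of all 9603 genes tested (1018 genes); 4.35% were higher and 6.25% lower. The 10 genes split evenly by sign, with 5 positive and 5 negative log2 fold changes and a median of 0.14 against 0 for all genes tested. The 8 genes without a call were Igf1, Igf1r, Igf2r, Irs2, Igfbp2, Igfbp4, Igfbp5 and Pappa. With total-count scaling the overall median shifted from 0 to 0.15, the calls split into 715 higher and 396 lower, and Pappa was called as well. No member separated all Tyrphostin from all Control libraries, which 1.51% of genes tested did.

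**Figure D1:**
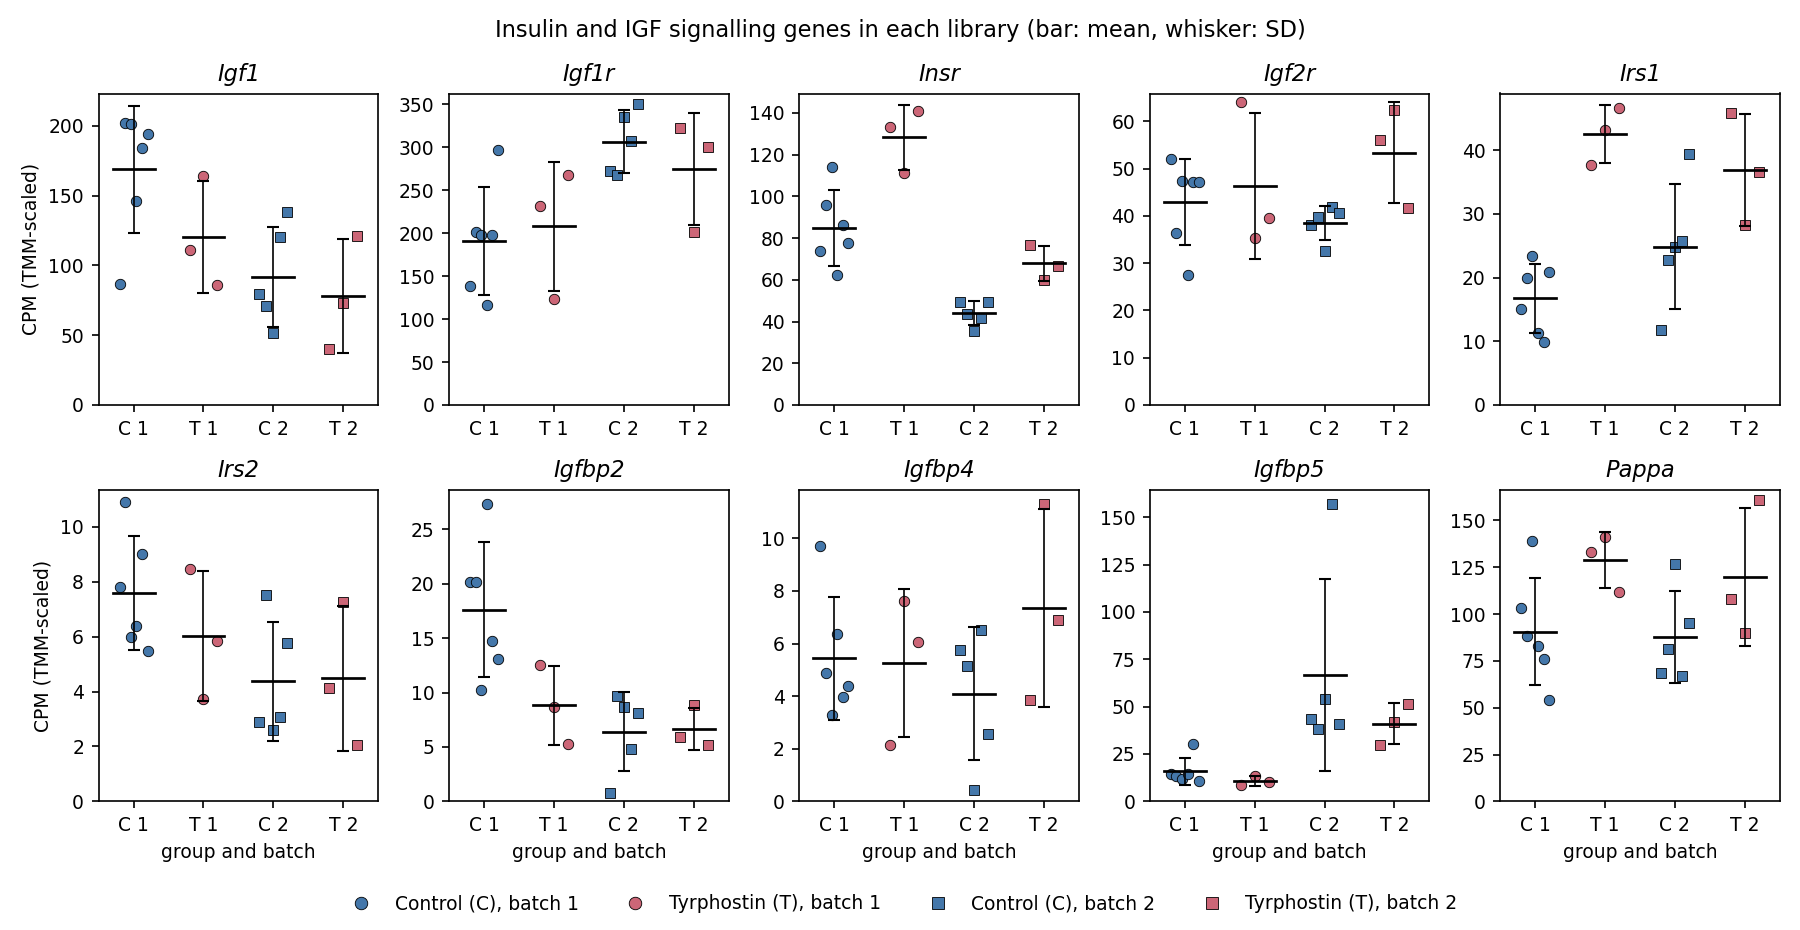
CPM (linear axis) of each of the 10 genes in every library, in columns for Control and Tyrphostin libraries of batch 1 and batch 2. Each library is 1 point, and each column has a bar at its mean with an SD whisker. For Irs1 all 3 batch 1 Tyrphostin points lie above the 6 batch 1 Control points, and for Insr all 3 batch 2 Tyrphostin points lie above the 5 batch 2 Control points.

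The adaptors are described first, since Irs1 had the largest fold change among the 10 genes. Irs1 (ENSMUSG00000055980.2) lies on the minus strand of chromosome 1 at 82233101 to 82291416, and Irs2 (ENSMUSG00000038894.7) on the minus strand of chromosome 8 at 10984681 to 11008458, both in GRCm38. Both encode large docking proteins of the same family. The 250 bases before the RefSeq start site of each (GRCm38.p6, minus strand, written 5′ to 3′) are shown because Irs1 was called and its close relative Irs2 was not. A difference in response between Irs1 and Irs2 was not tested. Capitals mark the E-box CACGTG, a palindrome recognised by basic helix-loop-helix factors.
Irs1 promoter, chr1:82291440-82291689: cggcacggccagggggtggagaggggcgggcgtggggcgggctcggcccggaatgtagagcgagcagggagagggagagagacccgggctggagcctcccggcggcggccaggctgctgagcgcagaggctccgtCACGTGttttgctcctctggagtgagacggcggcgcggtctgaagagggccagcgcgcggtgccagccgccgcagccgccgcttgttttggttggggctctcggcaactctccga
Irs2 promoter, chr8:11008930-11009179: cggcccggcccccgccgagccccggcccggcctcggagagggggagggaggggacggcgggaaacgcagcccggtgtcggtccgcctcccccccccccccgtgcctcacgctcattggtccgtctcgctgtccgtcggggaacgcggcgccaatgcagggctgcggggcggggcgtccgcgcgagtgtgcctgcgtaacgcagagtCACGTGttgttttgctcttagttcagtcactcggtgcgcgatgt
The E-box begins at -115 in Irs1 and at -44 in Irs2, counted from the base before the RefSeq start site as -1. The gene limits above come from GENCODE, which for Irs2 places the 5′ end at 11008458, downstream of the RefSeq start site. The E-box lies within GTCACGTGTT, a run of 10 bases that the 2 windows share on the transcribed orientation, from -117 in Irs1 and from -46 in Irs2. No shared run was longer, but at least 1 other, TGTTTTGCTC, was as long. The windows are alike in base composition, with 72.4% GC in Irs1 and 72.8% in Irs2. An E-box is present in 6.02% of the 32851 RefSeq promoter windows of this length, a background not matched for GC content. The motif letters were chosen after these sequences were seen, and a match is a description of the letters only.

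Among the members, 8 of 10 had a RefSeq promoter window (9 windows, with 2 for Igfbp2). The E-box was also found in Igf2r, at -48 and -7, and in the first Igfbp2 window, at -142. The AP-1 letters TGANTCA, present in 6.75% of windows, were found in Igf1 at -37 and in the second Igfbp2 window at -39. The Igf1 window, at 87860861 to 87861110 on chromosome 10, lies inside the gene as placed by GENCODE, which begins at 87858265. The second Igfbp2 window, at 72825137 to 72825386 on chromosome 1, also lies inside its gene, which begins at 72824503. Neither the FOXO letters TGTTTAC (3.17% of windows) nor the cyclic AMP response element TGACGTCA (1.55%) was found in a member's window, on either strand. The GC box GGGCGG, found in 32.7% of windows, was present in Irs1, Irs2, Igf1r, Igf2r and the first Igfbp2 window. No motif searched overlapped the letters of another in the Irs1 and Irs2 windows.

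Irs1 rose in the Tyrphostin libraries. In batch 1 Control libraries its level ran from 9.88 to 23.3 CPM with a median of 17.6, and Tyrphostin 1 to 3 were at 37.6, 43.2 and 46.6 CPM. In batch 2, Control 7 to 11 were at 11.8, 22.7, 24.8, 25.7 and 39.3 CPM and Tyrphostin 4 to 6 at 45.8, 28.3 and 36.6 CPM. All 6 Tyrphostin libraries lay above the median of the 11 Control libraries, and 3 of them above every Control library. The groups did not overlap in batch 1, and in batch 2 Control 11 lay above Tyrphostin 5 and 6. The log2 fold change was 0.98 ± 0.22 (SE, 6 against 11 libraries; adjusted p = 0.00529 in edgeR). Leaving out any 1 library gave log2 fold changes of 0.9 to 1.1, with the call kept in 17 of 17. Exons of Irs1 and of Irs2 each overlap a gene model on the opposite strand that has no row in the count table. The strand setting of the counting is not given in the sources used here, and reads from those models cannot be told apart from Irs1 or Irs2 reads.

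Irs2 was scarce and was not called. Its counts ran from 6 to 67 per library, with 6.13 ± 2.62 CPM over the Control libraries (SD, n = 11) and 5.25 ± 2.39 CPM over the Tyrphostin libraries (SD, n = 6). The log2 fold change was -0.22 ± 0.29 (SE; adjusted p = 0.713 in edgeR), with a 95% interval from -0.78 to 0.35 and values of -0.42 without Tyrphostin 5 and -0.08 without Control 8. Per kilobase of exon, the ratio of Irs1 to Irs2 levels had a median of 1.3 (0.756 to 2.7) in batch 1 Control libraries and 5.51 (3.07 to 8.01) in batch 1 Tyrphostin libraries. In batch 2 the ratio had a median of 4.71 (2.1 to 6.57) in Control and 7.7 (2.69 to 12.3) in Tyrphostin libraries. The ranges were apart in batch 1 and overlapped in batch 2, and the ratio was not tested.

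Among the receptor genes, Insr was called and Igf1r and Igf2r were not; differences between the receptor genes in response were not tested. Insr (ENSMUSG00000005534.10) lies on the minus strand of chromosome 8 at 3122061 to 3279617 and encodes the insulin receptor. Its level in batch 1 Control libraries ran from 62.1 to 114 CPM with a median of 81.9, and Tyrphostin 1 to 3 were at 133, 111 and 141 CPM. Control 7 to 11 of batch 2 were at 49.6, 43.7, 35.6, 41.8 and 49.5 CPM, and Tyrphostin 4 to 6 at 76.8, 60.1 and 66.8 CPM. The batch 2 groups did not overlap. In batch 1 only Control 3, at 114 CPM, lay above a Tyrphostin library. The 3 Tyrphostin libraries of batch 2 lay within the range of the batch 1 Control libraries or just below it, so the groups overlapped across the 17 libraries.

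Over all libraries the log2 fold change of Insr was 0.61 ± 0.14 (SE; adjusted p = 0.00628 in edgeR). Leaving out any 1 library gave 0.57 to 0.66, with the call kept in 17 of 17. Without the batch term the log2 fold change was 0.56 and the call was lost (edgeR adjusted p = 0.203). Markers of ovulation moved with the treatment as well: the summed level of Ptgs2, Tnfaip6, Has2 and Ptx3, genes that granulosa and cumulus cells switch on at ovulation, ran from 13900 to 25000 CPM in Control and 3590 to 4890 in Tyrphostin libraries of batch 1. In batch 2 that sum ran from 6470 to 10400 CPM in Control and 966 to 2020 in Tyrphostin libraries, and all 4 genes fell in the fit over all libraries. Of the granulosa markers, Fshr, Cyp19a1 and Nr5a2 rose (3 of 5 tested) and Inha and Inhba were not called, while the summed list ran from 52500 to 81200 CPM over the 17 libraries. The part of these markers in the results for Irs1 and Insr was not tested.

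Igf1r, on the plus strand of chromosome 7 at 67952827 to 68233668, encodes the receptor through which IGF1 acts. Its level was 244 ± 78.5 CPM over the Control libraries (SD, n = 11) and 241 ± 72.7 CPM over the Tyrphostin libraries (SD, n = 6). The log2 fold change was -0.01 ± 0.2 (SE; adjusted p = 0.982 in edgeR), and its 95% interval of -0.4 to 0.38 does not reach a change of 1.5-fold in either direction. The sign of this small value turned with the scaling, to 0.12 with total counts. Igf2r, on chromosome 17 at 12682406 to 12769664, encodes a receptor without kinase activity that removes IGF2 and carries mannose 6-phosphate proteins. Its level was 40.9 ± 7.24 CPM over the Control libraries (SD, n = 11) and 49.9 ± 12.6 CPM over the Tyrphostin libraries (SD, n = 6), with a log2 fold change of 0.29 ± 0.16 (SE; adjusted p = 0.309 in edgeR), or 0.18 without Tyrphostin 1.

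The ligand gene Igf1, on chromosome 10 at 87858265 to 87937042, was not called. Its level in batch 1 Control libraries ran from 86.5 to 202 CPM with a median of 189, and Tyrphostin 1 to 3 were at 111, 164 and 86 CPM. In batch 2, Control 7 to 11 were at 79.5, 71, 51.3, 120 and 138 CPM and Tyrphostin 4 to 6 at 40.2, 72.8 and 121 CPM. The groups overlapped in each batch, with 1 of 3 Tyrphostin libraries below every Control library of its batch. Above the Control median of their batch lay 0 of 3 Tyrphostin libraries in batch 1 and 1 of 3 in batch 2. The log2 fold change was -0.37 ± 0.25 (SE; adjusted p = 0.39 in edgeR), with a 95% interval of -0.85 to 0.11. It was -0.58 without Tyrphostin 6 and -0.23 without Tyrphostin 4. The other ligand genes gave almost no counts: Igf2 held 0 to 4 counts per library, Ins2 at most 2, and Ins1 0 in all 17 libraries.

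None of the 3 binding-protein genes was called in the main comparison by edgeR or DESeq2. Igfbp5 had an unadjusted p under 0.05 (0.0385 in edgeR), as did 2279 of all 9603 genes tested. Igfbp2, on chromosome 1 at 72824503 to 72852474, held 3 to 94 counts per library and had a log2 fold change of -0.51 ± 0.34 (SE; adjusted p = 0.387 in edgeR). Igfbp4, on chromosome 11 at 99041244 to 99054392, encodes a main substrate of PAPP-A and held 1 to 49 counts. Its log2 fold change was 0.34 ± 0.36 (SE; adjusted p = 0.626 in edgeR), with the widest 95% interval of the 10 genes, -0.36 to 1.04. It was 0.11 without Tyrphostin 5 and 0.56 without Tyrphostin 1. That of Igfbp2 was -0.32 without Tyrphostin 3.

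Igfbp5, on chromosome 1 at 72857932 to 72874884, had a log2 fold change of -0.64 ± 0.29 (SE; adjusted p = 0.181 in edgeR). Without Control 10, the library with its highest level, the log2 fold change was -0.33. Pappa, on chromosome 4 at 65124174 to 65357509, had 89.3 ± 25.6 CPM over the Control libraries (SD, n = 11) and 124 ± 25.7 CPM over the Tyrphostin libraries (SD, n = 6). Its log2 fold change of 0.48 ± 0.19 (SE) missed the threshold (edgeR unadjusted p = 0.017, adjusted p = 0.108). It passed with total-count scaling (0.63, edgeR adjusted p = 0.0173) and without Control 3 (edgeR adjusted p = 0.0489), the Control library with the highest Pappa level.

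**Figure D2:**
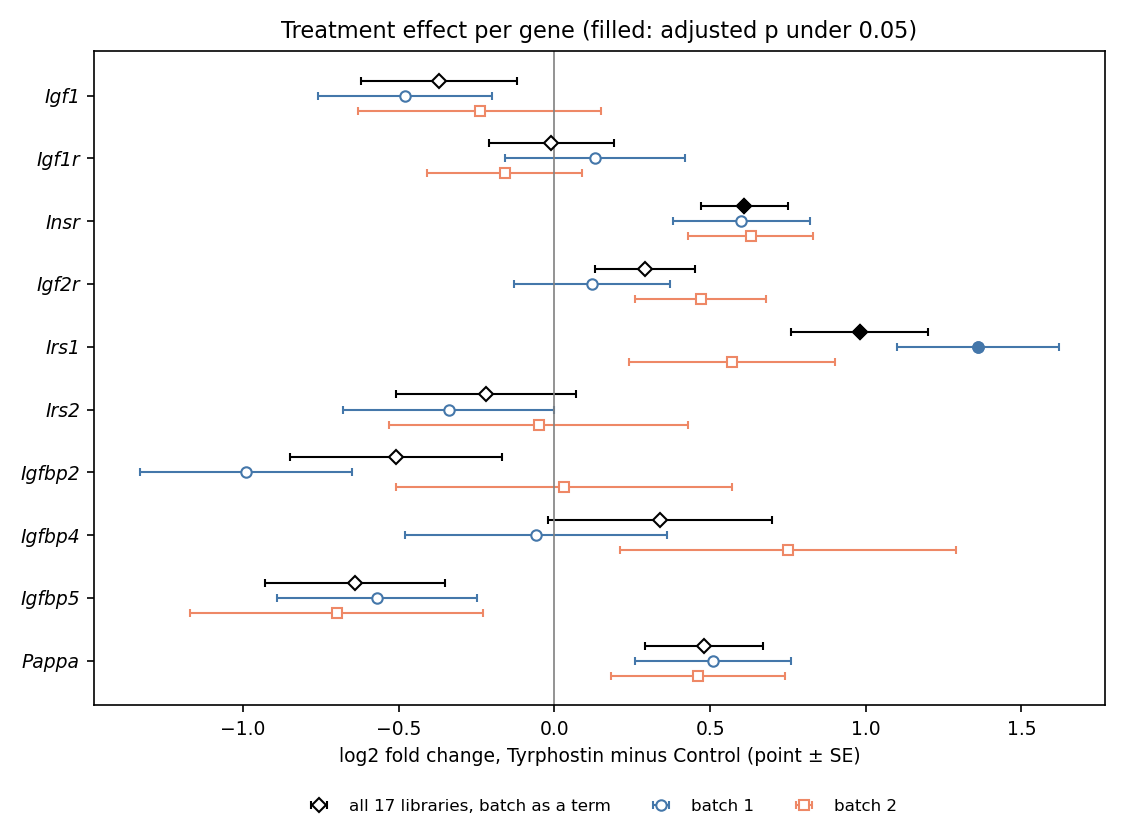
Log2 fold change (Tyrphostin minus Control, point ± SE) of the 10 genes fitted to all 17 libraries and adjusted for batch (diamonds), within batch 1 (circles) and within batch 2 (squares), filled where the edgeR adjusted p is under 0.05. Filled points are Irs1 (0.98 over all libraries, 1.36 in batch 1) and Insr (0.61 over all libraries).

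Each batch, which holds its own Control and Tyrphostin libraries, was also fitted alone. In batch 1 only Irs1 was called among the 10 genes, beside 6.73% of 9423 genes tested (2.94% higher and 3.79% lower), with a log2 fold change of 1.36 ± 0.26 (SE; adjusted p = 0.00364 in edgeR). Theca and stroma markers also moved with treatment there: Col1a1 (-1.2, adjusted p = 0.027) and Col1a2 (-1.28, adjusted p = 0.0442) fell in edgeR, and 7 of 8 tested had negative values, with Cyp17a1 the exception at 1.27. In batch 2 all 8 had positive values and edgeR called none, with Col1a1 (p = 0.0438) under an unadjusted 0.05. The part of these cells in the results for the 10 genes was not tested.

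Insr had a log2 fold change of 0.6 ± 0.22 in batch 1 (SE; adjusted p = 0.109 in edgeR) and 0.63 ± 0.2 in batch 2 (SE; adjusted p = 0.236 in edgeR), close to the same size in both. None of the 10 was called in batch 2 by edgeR, where 0.621% of 9830 genes were (0.193% higher and 0.427% lower), or by DESeq2. There Insr (p = 0.00958 in edgeR) and Igf2r (p = 0.0452, log2 fold change 0.47 ± 0.21) had an unadjusted p under 0.05, as did 1047 of the 9830 genes. Of the 10 genes, Irs1 alone separated the groups in batch 1, beside 5% of genes with all Tyrphostin libraries above Control and 6.3% with all below. Insr alone did so in batch 2, beside 4.22% of genes above and 5.08% below.

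Irs1 and Igfbp2 had the 2 lowest unadjusted p-values for a difference between batches in the treatment effect, though neither passed adjustment. The log2 fold change of Irs1 was 0.57 ± 0.33 (SE) in batch 2, and its interaction with batch was -0.78 ± 0.43 (SE; edgeR p = 0.0861, adjusted p = 1). Igfbp2 had -0.99 ± 0.34 (SE; adjusted p = 0.0889 in edgeR) in batch 1, where 2 of 3 Tyrphostin libraries lay below every Control library, and 0.03 ± 0.54 (SE) in batch 2. The interaction of Igfbp2 was 1.03 ± 0.64 (SE; edgeR p = 0.121, adjusted p = 1). For all genes tested the interaction gave 0 calls in edgeR and 0 in DESeq2, with 342 genes at an unadjusted p under 0.05 in edgeR. Without the low-count filter it gave 79 calls.

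The 11 Control libraries were also compared by batch, to describe how the 10 genes differ between batches in Control follicles. Several of the 10 had a log2 difference there larger in size than with treatment, a contrast that was not tested. In batch 2 Control libraries Igfbp5 was higher, and Insr and Igfbp2 were lower, than in batch 1. These 3 of 10 genes stand beside 11% of 9128 genes called in that comparison (5.5% higher and 5.5% lower). The same 3 did not overlap between the batches, beside 7.23% of genes (3.41% higher in batch 2 and 3.82% lower). With total-count scaling the split was 907 higher against 281 lower, with a shift of the overall median from 0.04 to 0.23. The batch 1 Control libraries belong to sets 1 and 2 and those of batch 2 to sets 4, 5 and 6. Summing by set was not done for this comparison.

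Igfbp5 had the largest batch difference of the 10. In batch 1 Control libraries it ran from 10.9 to 30.2 CPM with a median of 13.9, and Control 7 to 11 were at 43.3, 38.4, 53.9, 157 and 40.6 CPM. All 5 batch 2 libraries lay above all 6 of batch 1. The log2 difference was 2.08 ± 0.4 (SE; adjusted p = 0.00454 in edgeR), a 4.23-fold higher level in batch 2, and 1.46 without Control 10. The Tyrphostin libraries, which that fit did not use, were at 8.61, 13.4 and 10.1 CPM in batch 1 and at 29.9, 41.8 and 51.3 CPM in batch 2. These values did not overlap, and the share of all genes without overlap between the Tyrphostin batches was not computed. Summed theca and stroma markers were also higher in several batch 2 Control libraries, at 2140, 2010, 433, 1190 and 483 CPM in Control 7 to 11. Control 9, with the lowest of these sums, had the second highest Igfbp5 level of the 5. The part of those cells in the Igfbp5 difference was not tested.

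Insr was lower in batch 2 Control libraries by a log2 difference of -0.94 ± 0.19 (SE; adjusted p = 0.00491 in edgeR), with all 5 batch 2 libraries below all 6 of batch 1. The Tyrphostin libraries were at 111 to 141 CPM in batch 1 and 60.1 to 76.8 CPM in batch 2. How many of all genes were likewise apart between the Tyrphostin batches was not computed. The batch difference in Control libraries was larger in size than the treatment effect of 0.61, a contrast that was not tested. Igfbp2 was lower in batch 2, at 0.787, 9.64, 8.69, 4.79 and 8.11 CPM in Control 7 to 11 against 10.2 to 27.3 CPM in batch 1. The Tyrphostin libraries overlapped for Igfbp2, at 5.27 to 12.5 CPM in batch 1 and 5.22 to 8.89 CPM in batch 2. Between the Control batches the log2 difference of Igfbp2 was -1.43 ± 0.41 (SE, adjusted p = 0.0331 in edgeR). This call was lost when Control 1, 2, 4 or 10 was left out (edgeR adjusted p from 0.0596 to 0.0838) and with total-count scaling (edgeR adjusted p = 0.0588). The summed ovulation markers were likewise lower in batch 2 Control libraries without overlap, at 6470 to 10400 CPM against 13900 to 25000, with Ptgs2 (-1.64) and Tnfaip6 (-0.94) called of the 4 genes. Their part in the differences of Insr and Igfbp2 was not tested.

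Igf1 and Igf1r, ligand and receptor, had log2 differences of opposite sign between the Control batches, and neither passed the threshold. Igf1 had a log2 difference of -0.86 ± 0.28 (SE; adjusted p = 0.0552 in edgeR) and Igf1r one of 0.69 ± 0.23 (SE; adjusted p = 0.0604 in edgeR). Both were called by DESeq2 and without the low-count filter, and Igf1r also with total-count scaling. Irs1 (0.6 ± 0.29, edgeR adjusted p = 0.214) and Irs2 (-0.74 ± 0.33, edgeR adjusted p = 0.167) were not called. Igf2r, Igfbp4 and Pappa had log2 differences of -0.14, -0.34 and -0.04, of which those of Igf2r and Pappa turned positive with total-count scaling (0.04 and 0.14).

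**Figure D3:**
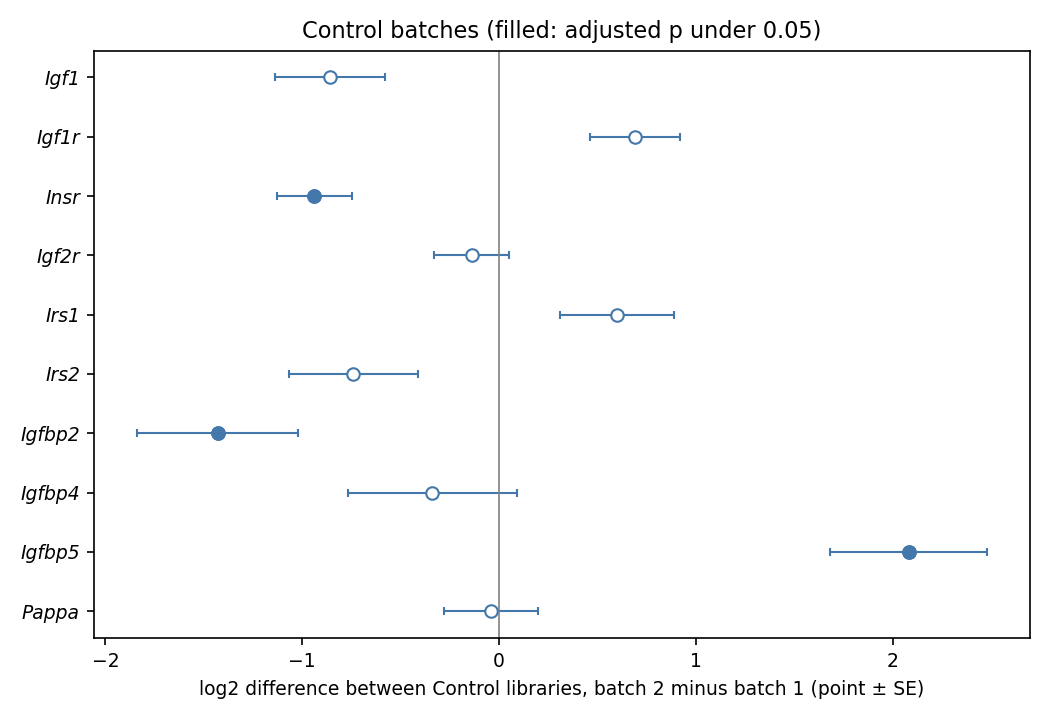
Log2 difference between the 5 batch 2 and the 6 batch 1 Control libraries (batch 2 minus batch 1, point ± SE) for the 10 genes, filled where the edgeR adjusted p is under 0.05. Igfbp5 (2.08) lies to the right, and Insr (-0.94) and Igfbp2 (-1.43) to the left.

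Levels were compared between genes per kilobase of exon, as mean CPM per kilobase. Over the 17 libraries Igf1r (14.5 ± 4.42, SD) and Igf1 (12.3 ± 5.38) were highest, followed by Pappa (9.21 ± 2.74). Igfbp2 (5.87 ± 3.62), Igfbp5 (5.72 ± 5.88), Insr (5.64 ± 2.32) and Igf2r (4.74 ± 1.08) came next, within 1 SD of each other. Irs1 (2.98 ± 1.34), Igfbp4 (1.21 ± 0.613) and Irs2 (0.92 ± 0.396) were lowest, and the last 2 also differed by less than their spread. The order of the higher genes was another in each Control batch: Igf1 (17 ± 4.57), Igf1r (11.4 ± 3.75), Igfbp2 (9.54 ± 3.35) and Pappa (8.22 ± 2.6) in batch 1, and Igf1r (18.3 ± 2.21), Igfbp5 (11.1 ± 8.48), Igf1 (9.28 ± 3.62) and Pappa (7.95 ± 2.23) in batch 2. Igf1 and Igf1r of batch 1 differed by more than either SD, and the other neighbours in these orders by less than the larger of their SDs. The receptor ratio also differed in level between batches: the ratio of Insr to Igf1r per length had a median of 0.618 (0.32 to 0.701) in batch 1 Control and 0.172 (0.13 to 0.223) in batch 2 Control libraries. In Tyrphostin libraries the median ratio was 0.698 (0.64 to 1.1) in batch 1 and 0.291 (0.271 to 0.365) in batch 2. Igf1r was thus the more abundant transcript per length at the median of every group.

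How far the 10 genes varied together was described after removing the means of each treatment and batch group, over the same 17 libraries, which share depth and preparation within a batch. Insr and Igf1r had a Pearson r of 0.51, Irs1 and Igf1r 0.47, Irs2 and Igf2r 0.47, and Irs1 and Irs2 0.01. The lowest were Igfbp4 with Igf1r, at -0.5, and Igfbp2 with Insr, at -0.48. Among 6332 genes of sufficient level, those most like Irs1 by this measure were Cpeb2 (r = 0.86, Spearman rho = 0.82) and Birc6 (r = 0.85, rho = 0.87). Those most like Insr were Rbm15b (r = 0.84, rho = 0.84) and Noc2l (r = 0.83, rho = 0.83). Without the 2 libraries farthest from the median these r were 0.74, 0.75, 0.83 and 0.71. These 4 genes are the top of a search, and none of them was called for treatment.

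The other genes of the pathway were taken from a list of 64, of which 48 were tested. Foxo1, Foxo3, Socs2 and Grb14 rose and Stc1, Slc2a1, Eif4ebp1 and Enpp1 fell, 8 genes or 16.7% of those tested, beside 10.6% of all genes. The list was chosen with earlier results of these data known, so these shares are a description only. The median log2 fold change of the 48 was -0.06, against 0 for all genes. The 16 not tested held at most 30 counts in any library and included Igf2, Ins1, Ins2, Igfbp1, Irs3, Irs4 and the insulin-responsive glucose transporter gene Slc2a4.

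FOXO factors are transcription factors that AKT keeps out of the nucleus, and both tested members rose. Foxo1 was at 5.16 ± 2.61 CPM over the Control libraries (SD, n = 11) and 13 ± 3.57 CPM over the Tyrphostin libraries (SD, n = 6). For Foxo1 the log2 fold change was 1.3 ± 0.27 (SE; adjusted p = 0.00266 in edgeR). Foxo3 was at 36.4 CPM ± 16.1 (SD, n = 11) in Control against 71.8 CPM ± 11.7 (SD, n = 6), and its log2 fold change was 1.01 ± 0.19 (SE; adjusted p = 0.00118 in edgeR). Each was positive in both batches: 1.77 in batch 1 and 0.81 in batch 2 for Foxo1, and 0.93 and 1.12 for Foxo3. Both were called in batch 1 and neither in batch 2.

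Of 14 tested genes for negative regulators of the receptors and of PI3-kinase signalling, 3 were called, in both directions. Socs2, a suppressor of growth hormone signalling, rose by 0.93 ± 0.18 on the log2 scale (SE; adjusted p = 0.00137 in edgeR), and Grb14, which binds and inhibits the insulin receptor, by 0.81 ± 0.21 (SE; adjusted p = 0.013 in edgeR). Enpp1, a membrane ectoenzyme reported to inhibit the insulin receptor, had a log2 fold change of -0.64 ± 0.18 (SE; adjusted p = 0.0262 in edgeR). The calls of Grb14 and Enpp1 were less stable: that of Grb14 was lost without Tyrphostin 2 (edgeR adjusted p = 0.0541), and that of Enpp1 without Tyrphostin 1, 2 or 5. The adaptor gene Grb10 had a log2 fold change of -0.27 ± 0.2 (SE; adjusted p = 0.452 in edgeR).

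Stc1, whose protein stanniocalcin-1 inhibits PAPP-A, fell and had the most negative log2 fold change of the pathway list. It was at 31.6 ± 11.6 CPM over the Control libraries (SD, n = 11) and 10.6 ± 6.01 CPM over the Tyrphostin libraries (SD, n = 6). For Stc1 the log2 fold change was -1.56 ± 0.33 (SE; adjusted p = 0.00316 in edgeR). Its relative Stc2 had -0.54 ± 0.48 (SE; adjusted p = 0.558 in edgeR), with -0.91 without Tyrphostin 1 and -0.27 without Tyrphostin 2. Stc1 was the only one of 6 tested genes for other binding proteins, proteases and their inhibitors to pass.

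Slc2a1, which encodes the glucose transporter GLUT1, was at 1970 ± 862 CPM over the Control libraries (SD, n = 11) and 736 ± 520 CPM over the Tyrphostin libraries (SD, n = 6). For Slc2a1 the log2 fold change was -1.49 ± 0.39 (SE; adjusted p = 0.0179 in edgeR). Its call was lost without Tyrphostin 2 (edgeR adjusted p = 0.0562). Among 19 tested genes of PI3-kinase, AKT and TOR, only Eif4ebp1, a repressor of translation that TOR inactivates, passed, with -0.85 ± 0.24 (SE; adjusted p = 0.0251 in edgeR). That call was lost without Tyrphostin 3 or Tyrphostin 6. Within batch 2, 1 of 20 tested genes of this list was called in edgeR, as lower in the Tyrphostin libraries. It was the only call among 49 tested pathway genes there, beside 0.621% of all 9830 genes. Akt1 had -0.09 ± 0.18 (SE; adjusted p = 0.832 in edgeR), a value that turned to 0.06 with total-count scaling. None of the 6 tested genes of the adaptor list, which leaves out Irs1 and Irs2, passed in edgeR, where their unadjusted p ran from 0.128 to 0.571.

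**Figure D4:**
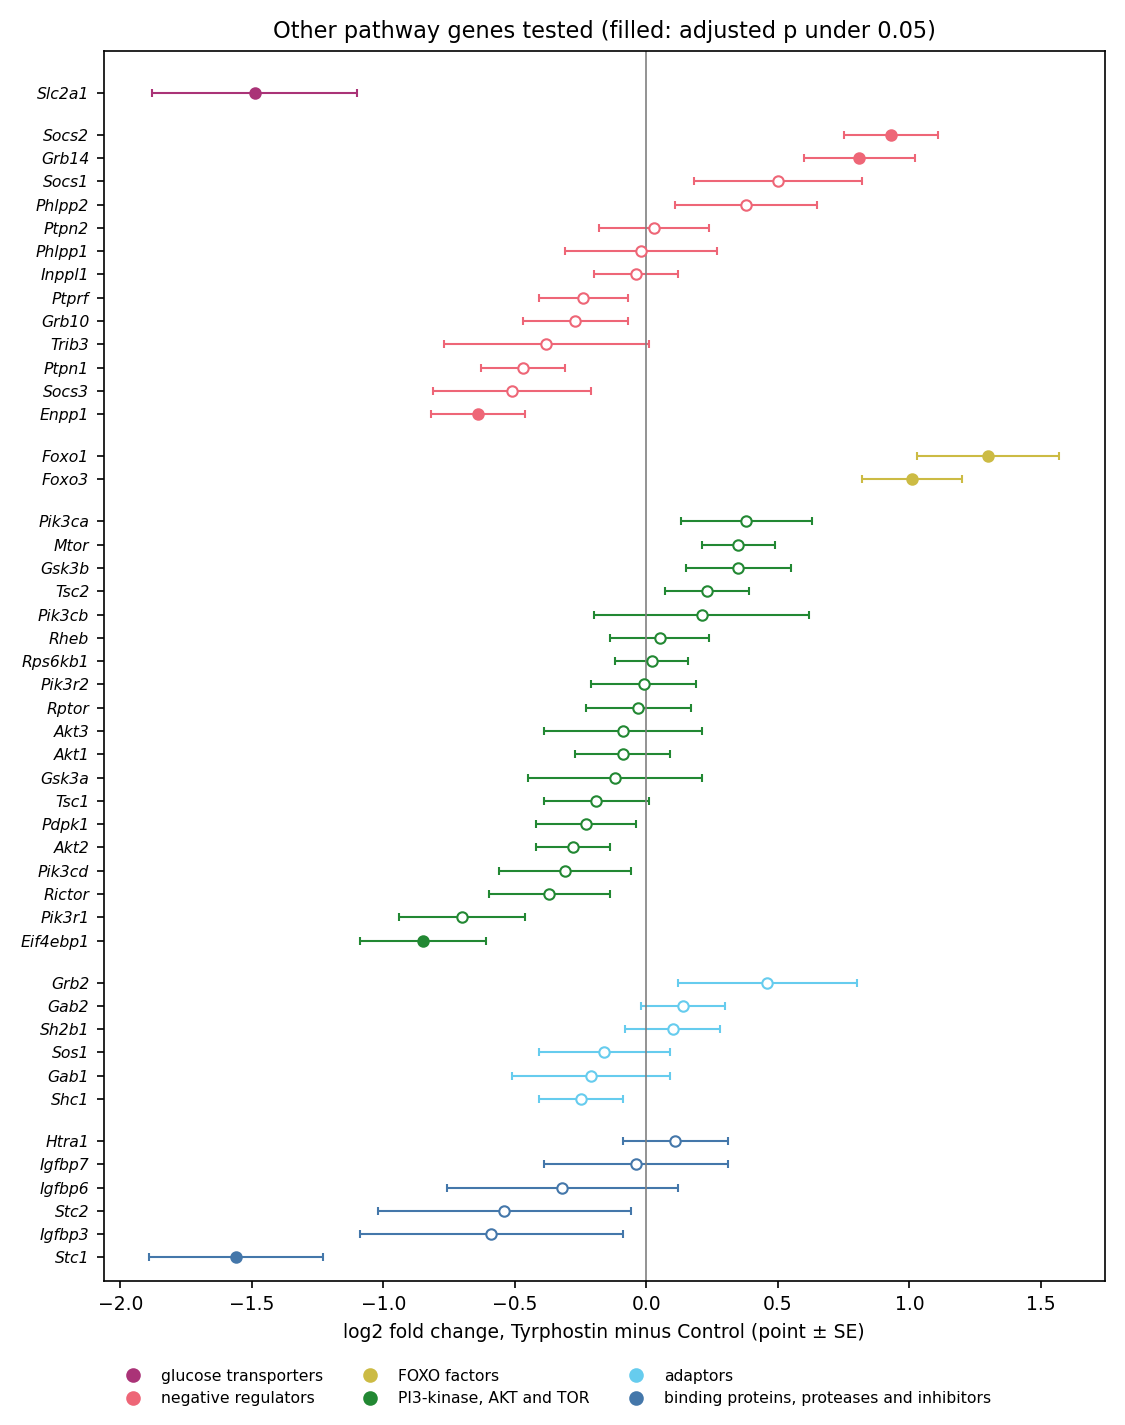
Log2 fold change (Tyrphostin minus Control with batch as a term, point ± SE) of 47 of the 48 tested genes of the pathway list, coloured by role and filled where the edgeR adjusted p is under 0.05. Filled points to the right are Foxo1, Foxo3, Socs2 and Grb14, and to the left Stc1, Slc2a1, Eif4ebp1 and Enpp1.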

How the data were processed

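The data are 17 RNA-seq libraries of follicles. Per the labels' protocols, RNA was purified from lysate with RNA-SPRI beads, and Smart-Seq2 was used for the libraries, without molecular identifiers, so the floors of 3 counts cover counting error only. The values deposited by the authors are raw counts by gene symbol, in 1 table. STAR, HTSeq and GRCm38 are named in the submitters' processing notes; annotation, strand setting and gene filter are not given in the sources used here. Columns were assigned by the library names in the labels, and 0 columns belonged to other samples.

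Counts were tested in R 4.3.3 with edgeR 4.0.16: filterByExpr, TMM scaling, robust glmQLFit and glmQLFTest (quasi-likelihood), adjusted by Benjamini-Hochberg over all genes tested, at a threshold of 0.05. The filter used the treatment group, or batch for the Control comparison. The SE was taken as the size of the log2 fold change divided by the square root of F, and 95% intervals as 1.96 SE on each side, which carry the spread between libraries. Residual correlations used log2 CPM with a prior count of 2 and genes of average log2 CPM of at least 3. Gene positions and exon lengths came from GENCODE M21 (GRCm38), and promoter sequences from RefSeq (GRCm38.p6). DESeq2 1.42.0 and limma-voom (limma 3.58.1), other scaling, no filter, no batch term, Control libraries summed by set (the first number of the library name), replicate blocks and omission of each library were alternatives; omission of 3 libraries together was added after seeing the data. The code was tested on simulated counts.

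The 10 genes and the pathway and marker lists were chosen with earlier results of these data known. All 10 are named whatever their change. Of the pathway list, genes with an adjusted p under 0.05 and a fixed set (Igf2, Stc1, Stc2, Akt1, Foxo1, Foxo3, Grb10 and 1 gene that is not reported here) are named, and the 2 nearest residual patterns for each of the 2 members of lowest p.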

Additional observations from a re-analysis of the deposited data

Results flagged for a closer look

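For each of the 10 genes the highest and the lowest library of Control batch 1, Control batch 2 and the 6 Tyrphostin libraries were set against the rest of the group. Of the 30 groups, 2 held a library farther from the others than Dixon's 95% limit, where chance gives 1.5. Both concern Igfbp5. Control 5 was at 30.2 CPM, against 10.9 to 14.6 CPM in the other batch 1 Control libraries. Control 10 was at 157 CPM, against 38.4 to 53.9 CPM in the other batch 2 Control libraries. Summed theca and stroma markers were 757 CPM in Control 5, the highest of its group, and 1190 CPM in Control 10, the third of its 5 libraries. Their part in these Igfbp5 levels was not tested.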

How the results depend on the processing

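In the main comparison the count of genes called, 1018, was 619 without the batch term and 708 (without Tyrphostin 1) to 1314 (without Control 7) when 1 library was left out. Batch 1 gave 394 (without Tyrphostin 2) to 687, and its 634 calls (277 higher, 357 lower) became 459 and 264 with total-count scaling. Batch 2, with 61 calls, gave 11 (without Tyrphostin 6) to 221 (without Control 7), 222 without the low-count filter and 303 with DESeq2, and its 19 higher and 42 lower calls became 26 and 29 with total-count scaling. The interaction gave 79 without the filter. The Control batches gave 660 (without Control 3) to 1063. Irs1 kept its call in all 10 other alternatives of the main comparison and Insr in 8. Without Control 6, Control 7 and Tyrphostin 5 together, 3 libraries that stood apart in depth, mitochondrial share or theca markers, Insr, Irs1 and Igfbp2 (-0.83, edgeR adjusted p = 0.039) were called. Of the pathway calls, those of Eif4ebp1 and Slc2a1 were lost with Control libraries summed by set (edgeR adjusted p = 0.054 and 0.134), that of Grb14 without the batch term (0.0665), and that of Enpp1 with total counts (0.0946). That of Enpp1 (0.065) and that of Slc2a1 (0.0802) were also lost without the filter.

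Replicate numbers in the titles did not pair the samples, since Control 4 to 6 are of batch 1 and Tyrphostin 4 to 6 of batch 2. Same-numbered libraries had residual correlations of 0.03 to 0.32, and libraries of the same set number -0.27 to 0.11. A replicate block on the title number gave 624 calls in all, with Insr at 0.45 (edgeR adjusted p = 0.291), Igf1r at 0.17 and Igfbp4 at -0.2; Foxo3, Grb14, Eif4ebp1 and Enpp1 also lost their calls. That block leaves out Control 7 to 11 and so holds no batch 2 Control library. With batch as a term, its treatment effect rests on Control 1 to 3 and Tyrphostin 1 to 3. A block on the set number gave 986 calls.

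Signs turned for the following values, each within 1 SE of 0. Igf1r over all libraries was 0.12 with total counts, 0.04 without the filter, 0.17 without the 3 libraries together, and -0.12 to 0.09 over omissions of 1 library. Akt1 was 0.06 with total counts. In batch 1, Igfbp4 was 0.14 with total counts, 0.01 without the filter and -0.43 to 0.33 over omissions, Igf2r -0.19 to 0.29 and Igf1r -0.09 to 0.41. In batch 2, Irs2 was 0.08 with total counts and -0.54 to 0.3 over omissions, Igfbp2 -0.24 to 0.26, Igf1 -0.7 to 0.08 and Igf1r -0.28 to 0.02. Between Control batches, Igf2r was 0.04 and Pappa 0.14 with total counts, and Pappa -0.22 to 0.12 over omissions. The cause was not tested. Irs2, Igfbp2 and Igfbp4 rest on 1 to 94 counts per library; the effect of depth on their results was not tested.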

Other observations

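Igfbp2 and Igfbp5 are neighbours on chromosome 1 of GRCm38, with Igfbp2 on the plus strand at 72824503 to 72852474 and Igfbp5 on the minus strand at 72857932 to 72874884, so that their 3′ ends face each other. In the Control libraries they differed between batches in opposite directions, Igfbp2 by -1.43 ± 0.41 and Igfbp5 by 2.08 ± 0.4 (log2, SE), and for both the batches did not overlap. The Igfbp2 call was lost when Control 1, 2, 4 or 10 was left out. In the Tyrphostin libraries the batches overlapped for Igfbp2, at 5.27 to 12.5 CPM in batch 1 and 5.22 to 8.89 CPM in batch 2. After removal of treatment and batch means the levels of Igfbp2 and Igfbp5 had a Pearson r of -0.02 over 17 libraries.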
